A study of Mus musculus with 14 samples.

Results

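Semaphorins and plexins, ligands and receptors first known from the guidance of growing axons, were followed by their RNA in the surface layer of the mouse fetal heart. They were the class 3 semaphorins Sema3a, Sema3b, Sema3c, Sema3d, Sema3e, Sema3f and Sema3g and the plexins Plxna2, Plxna4 and Plxnd1, chosen by name. All 10 genes were listed among the 15894 genes of the table, 7 of them ligands and 3 receptors. The tissue was the epicardium and subepicardium dissected from untreated E16.5 mouse hearts, and each library came from the dissected layers of 2 hearts pooled. There were 3 female ventral and 3 female dorsal libraries (pools 1 to 3 on each side), 4 male ventral libraries (pools 4 to 7) and 3 male dorsal libraries (pools 4 to 6). The labels of 1 more male library, numbered 7, contradict each other, with a dorsal title and source and a ventral tissue entry. Its region is unsettled, and its values are given apart. The labels give the genotype Tbx18Cre for every library, which is a Cre driven from an epicardial gene, and the study describes the hearts as wild type, so no group lacks the Cre allele by its label. Female libraries are all from pools 1 to 3 and male libraries all from pools 4 to 7, so sex and the series of pools cannot be told apart.

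Class 3 semaphorins are secreted proteins. Most of them act through a complex in which neuropilin 1 or neuropilin 2 binds the ligand and an A-type plexin carries the signal into the cell, where it loosens the cytoskeleton and integrin adhesion and turns a growth cone or a migrating cell away. Sema3e is the exception, since it binds plexin D1 directly, and plexin D1 on endothelial cells restrains vessel sprouting. In the heart, Sema3c and Plxna2 are known from the cardiac neural crest and the outflow tract and Sema3d from the epicardium and venous patterning. Sema3a is known from the patterning of sympathetic nerves, Sema3f and Nrp2 from lymphatic and venous vessels, and Sema3g from arterial endothelium.

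The levels are normalized CPM, counts scaled to the normalized size of each library, and the depth was 13.9 to 25.2 M reads on the listed genes per library (median 20.4). Values can be compared for 1 gene across libraries. Up to 3 reads count as no detection here, a limit that covers counting error only. This held for 2 of the values of these genes: Sema3e in female dorsal pool 1, with 2 reads, and Sema3g in male dorsal pool 6, with 0 reads. Library female dorsal 1 stands apart by its atrial cardiomyocyte markers, which sum to 12512 normalized CPM against 534 to 2010 in the other female dorsal libraries, and male ventral 7 by its blood endothelial markers, which sum to 169 against 802 to 866 in the other male ventral libraries. Calls of these genes that were lost without either library, and regional changes within a sex that moved without it, are given beside the results.

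In the mouse genome (GRCm38), Sema3d, Sema3a, Sema3e and Sema3c lie on chromosome 5 in this order and on the same strand, Sema3d at chr5:12383385-12588948, Sema3a at chr5:13125414-13602565, Sema3e at chr5:14025276-14256689 and Sema3c at chr5:17574281-17730268. The gaps between them are 536 kb, 423 kb and 3318 kb. Sema3b (chr9:107597674-107609229) and Sema3f (chr9:107681500-107710475) are neighbors 72.3 kb apart, and Sema3g is at chr14:31217860-31230352. Of the plexins, Plxna4 (chr6:32144268-32588192) and Plxnd1 (chr6:115954811-115995005) share a chromosome and Plxna2 is at chr1:194618218-194816869. A processed pseudogene, Gm8925, lies within Sema3d on the opposite strand. Of the 60-base windows of their exons, 1.19% in Plxna2, 0.910% in Sema3a and 0.0215% in Sema3e also occur in another gene, and none in the rest. Promoters were taken from RefSeq (GRCm38.p6), which gave 7 of the 10 genes. The 250 bases before the start are printed for the 4 of these genes that were called higher on the ventral side in female hearts, so that genes with like regional changes can be compared by the letters before their starts. Capitals mark a GC box, searched as GGGCGG on both strands.
Sema3c: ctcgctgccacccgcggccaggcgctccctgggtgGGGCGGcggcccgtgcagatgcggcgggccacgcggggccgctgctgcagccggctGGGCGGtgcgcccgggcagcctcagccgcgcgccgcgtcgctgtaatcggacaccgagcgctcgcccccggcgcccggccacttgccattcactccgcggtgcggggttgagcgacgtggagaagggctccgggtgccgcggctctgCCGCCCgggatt
Sema3d: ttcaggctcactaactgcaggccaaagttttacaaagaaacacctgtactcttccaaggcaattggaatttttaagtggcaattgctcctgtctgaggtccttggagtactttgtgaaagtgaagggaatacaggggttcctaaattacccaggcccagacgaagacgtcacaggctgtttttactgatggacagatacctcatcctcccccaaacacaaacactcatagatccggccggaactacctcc
Sema3e: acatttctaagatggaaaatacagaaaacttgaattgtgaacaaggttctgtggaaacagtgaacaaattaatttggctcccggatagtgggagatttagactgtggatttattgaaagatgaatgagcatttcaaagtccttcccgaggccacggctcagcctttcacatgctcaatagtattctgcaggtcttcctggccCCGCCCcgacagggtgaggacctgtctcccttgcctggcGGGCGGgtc
Plxnd1: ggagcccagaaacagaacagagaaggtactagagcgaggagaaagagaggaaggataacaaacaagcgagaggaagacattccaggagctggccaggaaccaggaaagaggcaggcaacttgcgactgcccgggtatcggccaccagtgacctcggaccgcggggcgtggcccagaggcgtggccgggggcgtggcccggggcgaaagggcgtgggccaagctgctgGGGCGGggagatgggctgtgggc

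The stretches are chr5:17574566-17574815 for Sema3c, chr5:12382916-12383165 for Sema3d and chr5:14025026-14025275 for Sema3e, all on the plus strand, and chr6:115995006-115995255 on the minus strand for Plxnd1. The starts are those of RefSeq, and the gene positions are those of GENCODE M21. The Sema3c stretch thus lies inside its gene as placed above, and that of Sema3d ends short of its gene. The printed stretches differ widely in base composition. The Sema3c promoter holds 78.4% G and C, with 39 CpG pairs and 3 GC boxes, and the Sema3d promoter 46.8%, with 4 CpG pairs and no GC box. Sema3e (48.0%, 7 CpG pairs) has 2 GC boxes and Plxnd1 (64.8%, 16 CpG pairs) has 1. Over the 32851 promoters of the RefSeq table the median was 52.4% G and C with 6 CpG pairs, and 32.7% held a GC box. The letters of 3 other motifs were searched on both strands: the TATA box TATAAA (in 12.4% of all promoters), the TEAD site GGAATG (12.6%) and the WT1 and EGR site GCGTGGGNG (1.65%). The TATA box was in none of the 7 windows, the TEAD letters were in that of Plxnd1 alone, at base 173 before the start, and the WT1 and EGR letters were in that of Plxna2 alone, where they overlap a GC box. No motif searched was in all 4 printed windows.

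The first question was which ligands differed between the sides of the heart in females. Of the 7 class 3 semaphorins, Sema3d, Sema3f, Sema3e and Sema3c were called higher on the ventral side, and of the 3 plexins Plxna4 and Plxnd1, so 6 of the 10 genes were called and none was lower ventrally. The background was high, since 27.8% of the 14411 genes tested in females were called, 14.5% higher ventrally and 13.3% higher dorsally. Every ventral library exceeded every dorsal one for these 6 genes, which was the case for 23.2% of all genes tested. The median log2 change of the 10 genes was 1.25, against 0.011 over all genes tested. The tests were limma on log2 of the level plus 1, with Benjamini-Hochberg adjustment over all genes tested and a call under 0.05, and changes are ventral minus dorsal on that scale, which understates those of low genes. In tissue made of several cell types, fewer cells of a type and less RNA per cell cannot be told apart. The numbers measure spread among pools of hearts from at least 3 litters, and the labels do not say which pools share a litter.

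**Figure D1:**
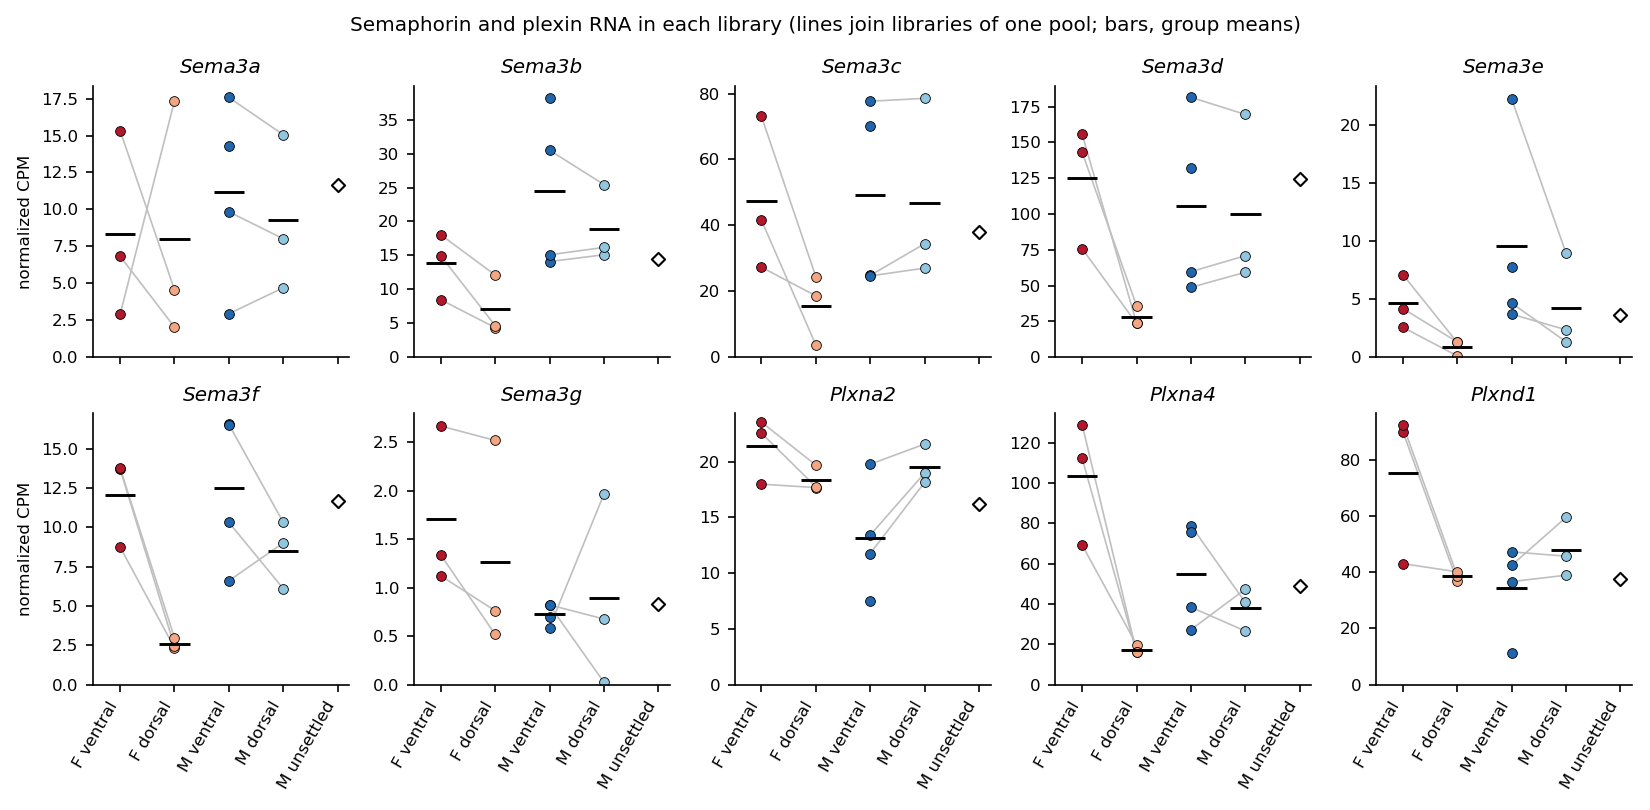
Normalized CPM (y axes, linear, each from 0) of the 10 genes in each library, for female (F) and male (M) ventral and dorsal libraries and the male library of unsettled region (open diamond); gray lines join the ventral and dorsal libraries of one pool number and black bars are group means. In females Sema3d and Plxna4 separate the sides in all 3 pools, and in males the sides overlap.

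Sema3d, a ligand made by the embryonic epicardium, was clearly split between the sides. It was at 75.8, 156 and 143 normalized CPM in female ventral pools 1, 2 and 3 and at 23.6, 23.9 and 36.0 in the dorsal ones. The lowest ventral library was thus above the highest dorsal one. The log2 change was 2.09 (SE 0.274, limma adjusted p = 0.0011), or 4.25 times on the plus-1 scale. Pool by pool, the ventral level was 3.22, 6.51 and 3.97 times the dorsal one. Without any single library the change stayed between 1.89 and 2.41 and was called each time.

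Sema3f, which acts mainly through neuropilin 2, was split in the same way. Its levels were 8.74, 13.7 and 13.8 in the ventral libraries and 2.33, 2.42 and 2.97 in the dorsal ones. The dorsal libraries lay close together and all under the ventral ones. This was a log2 change of 1.85 (SE 0.294, limma adjusted p = 0.0025), and leaving out any 1 library gave 1.75 to 2.05, called each time.

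Sema3c and Sema3e were called with less margin. Sema3c was at 27.3, 73.1 and 41.6 ventrally and at 18.6, 24.4 and 3.72 dorsally. The groups do not overlap, but ventral pool 1 was only slightly above dorsal pool 2, and dorsal pool 3 was far below the other dorsal libraries. The log2 change was 1.75 (SE 0.572, limma adjusted p = 0.0462). The call was lost without ventral pool 2 (1.38, adjusted p = 0.170), ventral pool 3 (1.78, 0.1003) or dorsal pool 3 (1.0002, 0.0750). Sema3e, the ligand of plexin D1, was at 2.58, 7.12 and 4.19 ventrally and at 0.12, 1.28 and 1.32 dorsally. Every value is low, and the lowest dorsal one is at the floor. Ventral minus dorsal, the log2 change came to 1.56 (SE 0.426, limma adjusted p = 0.0236). The call was lost without ventral pool 2 (1.25, adjusted p = 0.0952), ventral pool 3 (1.58, 0.0572) or dorsal pool 1 (1.21, 0.0701), the library rich in atrial markers. An antisense gene, Gm4128, overlaps the span of Sema3e, and strand was not stated for the counting. Whether their exons overlap was not tested, so some of their reads may not be told apart.

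Sema3b, Sema3a and Sema3g were not called in females. Sema3b, which can signal through either neuropilin, was at 8.48, 18.04 and 14.9 ventrally and at 4.36, 12.1 and 4.67 dorsally. Within each pool the ventral library was the higher one, while the groups overlap through pools 1 and 2. The log2 change was 0.95 (SE 0.403, adjusted p = 0.106), and with the pool number as a replicate block it passed the threshold (limma adjusted p = 0.0338), as it did without dorsal pool 2 (1.37, 0.0351). Sema3a, the classic repellent ligand of neuropilin 1, was at 2.90, 6.83 and 15.3 ventrally and 17.3, 2.04 and 4.57 dorsally. Its highest value was dorsal and its pools went opposite ways. This gave a log2 change of 0.23 (SE 0.668, limma adjusted p = 0.828), and of 0.95 without dorsal pool 1 (adjusted p = 0.265). Sema3g, a ligand of neuropilin 2 known from arterial endothelium, stood at 1.12, 1.34 and 2.67 ventrally against 0.76, 0.52 and 2.52 dorsally, near the filter of 1 normalized CPM. Its log2 change was 0.32 (SE 0.412, limma adjusted p = 0.599), and 0.19 without dorsal pool 1.

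Among the receptors, Plxna4, an A-type plexin that signals for Sema3a and other class 3 ligands, had the largest regional change of the 10 genes in females. It was at 69.3, 112 and 129 normalized CPM in the ventral libraries and at 19.8, 16.1 and 16.0 in the dorsal ones. The 3 dorsal libraries were almost equal and far below the ventral ones. The log2 change was 2.47 (SE 0.230, limma adjusted p = 0.0003), or 5.56 times on the plus-1 scale, and it was between 2.29 and 2.74 without any 1 library. The pools gave 3.50, 6.98 and 8.07 times. Antisense genes (Plxna4os1, Plxna4os2 and Plxna4os3) overlap the span of Plxna4. Whether their exons overlap was not tested here either, so some reads of the partners may not be told apart.

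Plxnd1, the endothelial receptor of Sema3e, was at 90.3, 92.7 and 43.1 ventrally and at 36.9, 38.8 and 40.2 dorsally. Pools 1 and 2 carried the difference, and in pool 3 the sides were nearly level. Over the 3 pools the log2 change was 0.87 (SE 0.264, limma adjusted p = 0.0354). The call was lost without ventral pool 1 (0.70, adjusted p = 0.0988), ventral pool 2 (0.68, 0.137) or any of dorsal pools 1, 2 and 3 (0.84, 0.87 and 0.90, adjusted p = 0.0791, 0.0822 and 0.0657), and after the trend with GC content and length was removed (0.58, 0.0965). Plxna2, an A-type plexin that receives Sema3c in the outflow tract, was level, at 17.97, 23.5 and 22.6 ventrally and 17.7, 19.7 and 17.7 dorsally. Its log2 change was 0.20 (SE 0.197, limma adjusted p = 0.480).

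Because only Plxna4, Sema3d and Sema3f were called without each library in turn, the count of 6 depended on single pools. It was 3 without ventral pool 2, 4 without ventral pool 3, dorsal pool 1 or dorsal pool 3, 5 without ventral pool 1 and 6 without dorsal pool 2. The calls over all genes fell as well, from 4007 of 14411 with every library. They were 2158 of 13984, 2707 of 14031, 3226 of 14114, 3190 of 14171, 3845 of 13995 and 2291 of 14203, in the same order of libraries. Under edgeR and under limma-voom, both run on reads recovered from the values, 4 of the 10 genes were called. Of all 14411 genes, edgeR called 3650 and limma-voom 3756. With the pool number as a replicate block 7 of the 10 were called, and 4265 of all genes. Sema3c was also not called with a pseudocount of 0.1 (adjusted p = 0.0540), without the filter on low values (0.0661), without the trend in eBayes (0.0921), by edgeR (0.0840) or by limma-voom (0.0510). Sema3e was not called after quantile normalization (0.0506), by edgeR (0.0707) or by limma-voom (0.0573), and Plxnd1 not without the trend in eBayes (0.0788).

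In males the same comparison called none of these genes. Of the 10, 9 were tested (Sema3g did not pass the filter on low values), and across all 14917 genes tested 0 were called by limma and 0 by edgeR or limma-voom, a background of 0%, while 2083 genes had an unadjusted p under 0.05 by limma, none of them a member. With the pool number as a block 76 genes were called, again none of the 9. No member had every male ventral library above every dorsal one, which held for 6.18% of the genes tested. The median log2 change of the 9 genes was 0.16, against 0.030 over all genes, and 7 of the 9 were above 0. That direction did not hold without single libraries, since the median was -0.019 without ventral pool 7, -0.11 without ventral pool 6 and -0.11 without dorsal pool 4, with 4 of the 9 above 0 each time. With the pool number as a replicate block, to which ventral pool 7 adds nothing for want of a dorsal partner, it was -0.019 with 4 above 0.

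In males the pools differed more than the sides. Sema3d was at 48.8, 59.7, 181 and 132 in male ventral pools 4, 5, 6 and 7 and at 59.4, 70.9 and 170 in male dorsal pools 4, 5 and 6. Pool 6 was high and pools 4 and 5 were low on both sides, and the log2 change was 0.03 (SE 0.477, limma adjusted p = 0.983). Sema3c was at 24.8, 24.7, 77.7 and 70.2 ventrally and 34.4, 27.0 and 78.5 dorsally, with the same split of the pools. Its log2 change was 0.03 (SE 0.478, limma adjusted p = 0.983). Without ventral pool 7 both were below 0, Sema3d at -0.14 and Sema3c at -0.20.

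Sema3e was the member with the largest change toward the ventral side in males, though it was not called. It was at 3.71, 4.67, 22.2 and 7.76 ventrally and at 2.37, 1.33 and 8.98 dorsally, higher ventrally in each of the 3 pools with both sides. Its log2 change in males was 1.004 (SE 0.624, limma adjusted p = 0.480) and was 0.53 without ventral pool 6. Sema3f was at 10.3, 6.59, 16.5 and 16.5 ventrally and 6.10, 9.001 and 10.3 dorsally (log2 change 0.45, SE 0.351, limma adjusted p = 0.570). Sema3b was at 14.1, 15.1, 30.5 and 38.3 ventrally and 15.1, 16.2 and 25.4 dorsally, and Sema3a at 2.94, 9.84, 17.6 and 14.3 ventrally and 4.70, 8.02 and 15.1 dorsally. Both overlap between the sides. Without ventral pool 7 the male log2 change of Sema3f was 0.30, that of Sema3b 0.022 (0.27 with it) and that of Sema3a -0.019 (0.16 with it). Sema3g was at 0.59, 0.82, 0.82 and 0.70 ventrally and 1.97, 0.68 and 0.02 dorsally.

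Plxna4 was at 38.4, 27.2, 79.0 and 75.65 in the male ventral libraries and at 26.6, 47.3 and 40.8 in the dorsal ones. The sides overlap, and the log2 change was 0.42 (SE 0.365, limma adjusted p = 0.614). It was 0.19 without dorsal pool 4, 0.21 without ventral pool 6, 0.23 without ventral pool 7 and 0.71 without ventral pool 5. Plxnd1 and Plxna2 were the only tested members below 0 in males. Plxnd1 was at 42.5, 47.4, 36.7 and 11.2 ventrally and 59.6, 45.8 and 39.0 dorsally, with a log2 change of -0.63 (SE 0.422, limma adjusted p = 0.511). Its lowest value came from ventral pool 7, the library poor in blood endothelial markers, and without it the change was -0.17 (adjusted p = 0.801). Plxna2 was at 19.8, 13.4, 11.7 and 7.51 ventrally and 21.6, 18.97 and 18.1 dorsally, lower ventrally in all 3 pools with both sides. Its log2 change was -0.61 (SE 0.299, limma adjusted p = 0.392), and -0.39 without ventral pool 7.

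The male library of unsettled region had Sema3d at 125, Sema3c at 38.1, Sema3b at 14.5, Sema3a at 11.7, Sema3f at 11.6, Sema3e at 3.61 and Sema3g at 0.83 normalized CPM. Its plexins were at 48.8 (Plxna4), 37.8 (Plxnd1) and 16.2 (Plxna2). None of these was above all male libraries of settled region. Counted as dorsal or as ventral, it left the male count of called members at 0.

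**Figure D2:**
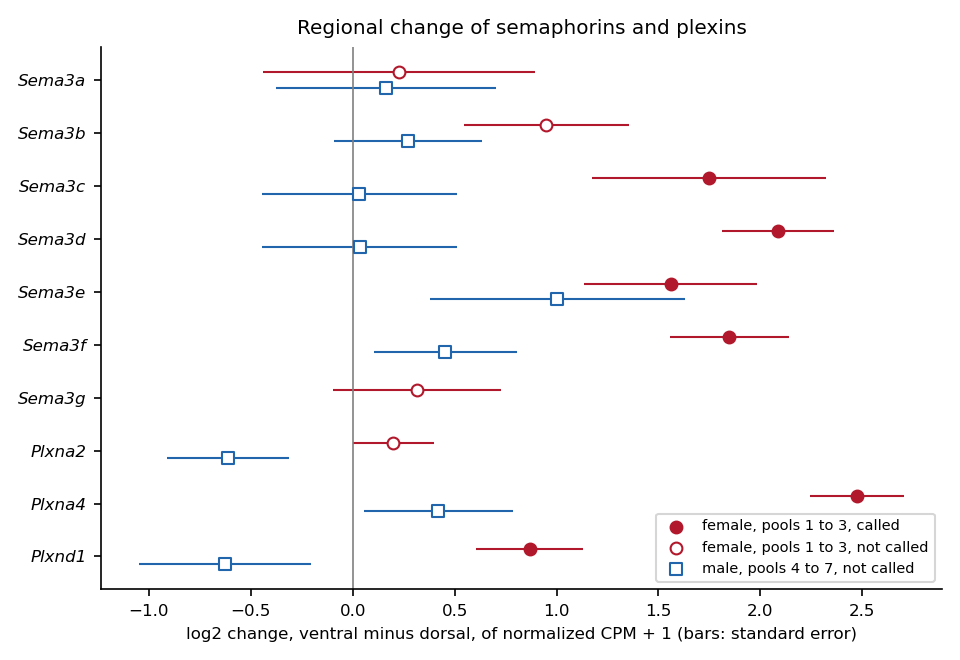
Log2 change between the ventral and dorsal sides (x axis, ventral minus dorsal, of normalized CPM plus 1) of each gene in females (red circles) and males (blue squares), with standard errors as bars; filled symbols are called by limma. The 6 called female changes run from 0.87 for Plxnd1 to 2.47 for Plxna4, and Sema3g has no male value.

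Whether the regional change itself differed between the 2 series was tested in 1 fit over the 13 libraries of settled region. The male change was smaller than the female one for Plxna4, by 2.05 on the log2 scale (interaction -2.05, SE 0.490, limma adjusted p = 0.0361), a difference called in that direction for 0.615% of the 15772 genes tested. All 10 interactions were below 0, while 48.7% of those of all genes tested were above 0. The median of the 10 was -1.10, against -0.017 over all genes. The next in size were Sema3d (-2.05, SE 0.641, adjusted p = 0.118) and Sema3c (-1.72, SE 0.847, 0.353), which were not called. The value for Sema3c ran from -2.18 to -0.97 without single libraries, the latter without female dorsal pool 3. With the pool number as a replicate block, Sema3d (-2.23, limma adjusted p = 0.000280) and Sema3c (-1.95, 0.0339) were called as well. The call of Plxna4 was lost without female ventral pool 2 or 3 (adjusted p = 0.103 and 0.106), without female dorsal pool 1, 2 or 3 (0.0583, 0.0932 and 0.0814), without male ventral pool 4 (0.0619) and without male dorsal pool 5 or 6 (0.0989 and 0.0703), while the difference stayed between -2.32 and -1.77.

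The same values were also counted within pools. In female pools 1, 2 and 3 the ventral library was above the dorsal one for 9, 10 and 10 of the 10 genes. In male pools 4, 5 and 6 it was so for 3, 4 and 7. The lone exception in females was Sema3a in pool 1. The share of all genes was not counted within pools. In the fits over pools, 50.7% of all genes tested were above 0 in females and 52.9% in males.

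Over both series, with sex as a covariate, Plxna4 (log2 change 1.38, SE 0.353, limma adjusted p = 0.0176), Sema3f (1.10, SE 0.290, 0.0193) and Sema3e (1.26, SE 0.416, 0.0455) were called higher ventrally, 3 of 10. The background was 9.8% of 15772 genes called higher ventrally and 9.06% called higher dorsally. Sema3d missed the threshold (0.99, SE 0.406, adjusted p = 0.0971) and passed it without male ventral pool 4 (1.21, 0.0359), male ventral pool 5 (1.16, 0.0483) or male dorsal pool 6 (1.34, 0.0210). Plxna4 was called without each library in turn. With the pool number as a block and the trend with GC content and length removed, neither Plxna4 (1.16, adjusted p = 0.0643) nor Sema3f (0.92, 0.0654) was called, and Sema3f was not called by limma-voom (1.05, 0.0691). The call of Sema3f was also lost without female ventral pool 2 (0.99, 0.0506) or female dorsal pool 2 (1.02, 0.0504), where Sema3e was lost too (1.11, 0.106 and 1.30, 0.0759) and 1 of the 10 genes was left called. Of all genes, 1557 of 15624 and 1429 of 15727 were called in these 2 fits, against 2974 of 15772 with every library. Sema3e was also lost without female ventral pool 1 or 3, female dorsal pool 1 or 3, male ventral pool 6 or 7 or male dorsal pool 4 or 5 (adjusted p = 0.0524, 0.0834, 0.0962, 0.0657, 0.0815, 0.0631, 0.0810 and 0.0955), with changes between 1.04 and 1.35. It was lost as well after quantile normalization (0.0900), without the trend in eBayes (0.0562), with the GC and length trend removed (0.0522), by edgeR (0.0789), by limma-voom (0.129) and with the library of unsettled region as ventral (0.0658).

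The study also compared males with females, which here is also pools 4 to 7 against pools 1 to 3. Sex varies between pools only, while the fit took the ventral and dorsal libraries of a pool as separate. Its standard errors may therefore be too small. With region as a covariate, Sema3b was the only member called, 1.04 higher in males on the log2 scale (SE 0.299, limma adjusted p = 0.0367), against 4.4% of genes called higher in males. Its female libraries ranged from 4.36 to 18.04 and its male ones from 14.1 to 38.3 normalized CPM, so the series overlap. The call was lost without female ventral pool 1, female dorsal pool 1 or 3, male ventral pool 6 or 7 or male dorsal pool 4, 5 or 6 (adjusted p = 0.0880, 0.0783, 0.0817, 0.0735, 0.0712, 0.0530, 0.0594 and 0.0770), with changes between 0.91 and 1.05. Sema3e (0.95, adjusted p = 0.163) and Sema3f (0.64, 0.178) were not called, nor was Plxna4 (-0.03, 0.972).

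Per kilobase of exon, which lets genes be set side by side, Sema3d led in the female ventral group with 14.5 ± 4.998 normalized CPM per kb (SD, n = 3). It was followed by Plxnd1 (10.3 ± 3.83), Plxna4 (7.34 ± 2.19), Sema3c (6.63 ± 3.28), Sema3b (2.89 ± 1.02) and Sema3f (2.32 ± 0.554). Of the neighbors in that order, only Sema3c and Sema3b and then Sema3f and Plxna2 (1.24 ± 0.173) had libraries that did not overlap. In the female dorsal group the order changed, with Plxnd1 first at 5.29 ± 0.229, clear of Sema3d at 3.24 ± 0.824, and Plxna4 in position 5 at 1.23 ± 0.153 per kb. In both male groups Sema3d was again first, at 12.3 ± 7.30 ventrally (n = 4) and 11.6 ± 7.04 dorsally (n = 3), without clear separation from the next gene. Sema3g was last in 3 of the 4 groups, at 0.38 ± 0.185 per kb in the female ventral one, and Sema3e was last in the female dorsal group at 0.098 ± 0.0738 per kb.

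**Figure D3:**
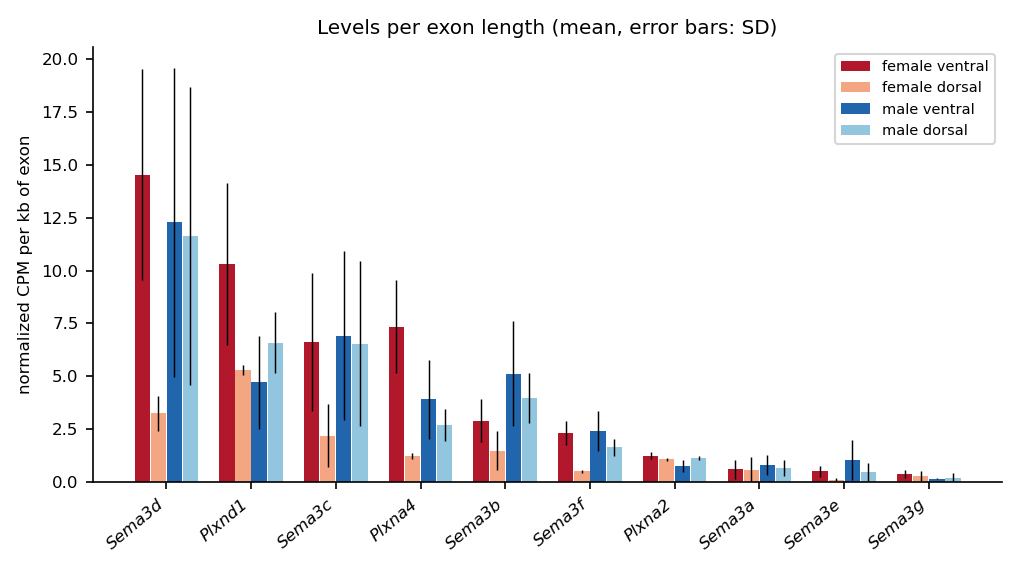
Mean level per kb of exon (y axis, normalized CPM per kb, from 0) of each gene in the 4 groups, with SD as bars (n = 4 for male ventral, 3 for the others). Sema3d leads in 3 of the 4 groups and Plxnd1 in the female dorsal one.

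The other genes of the pathway were counted from fixed lists. All 5 further plexins listed were called higher ventrally in females, Plxnb2, Plxnb1, Plxna3, Plxna1 and Plxnc1, the last named after its values were seen. Plxnc1 was called in 9 of 17 alternatives. Of all genes tested, 14.5% were called higher ventrally in females and 9.8% over both series. Plxnb2, a receptor of class 4 semaphorins, was at 121, 137 and 128 ventrally and at 48.6, 42.4 and 55.9 dorsally (log2 change 1.38, SE 0.146, limma adjusted p = 0.0005). Its male libraries ran from 86.5 to 110 ventrally and from 80.9 to 104 dorsally, and its interaction was -1.36 (SE 0.203, limma adjusted p = 0.0018). Plxna3, which pairs with neuropilin 2, rose by 1.70 in females (adjusted p = 0.0046), Plxna1 by 1.29 (0.0069) and Plxnb1 by 1.18 (0.0048) by limma. In males 0 of the 5 were called by limma, and with both series together 4 were. The call of Plxnb2 (0.66, adjusted p = 0.0329) was lost with the pool number as a replicate block (0.72, 0.0532), among other settings. It was also lost without female dorsal pool 1 (0.58, 0.0709). With the block Plxna3 was not called either (1.27, 0.0905, against 1.34 and 0.0401 without the block). Over both series Plxna3 was called in 7 of 26 alternatives, Plxnb2 in 14 of 27, Plxnb1 in 20 of 27 and Plxna1 in 23 of 27.

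The co-receptors went separate ways. Nrp2 was at 56.4, 88.4 and 43.7 in the female ventral libraries and at 22.8, 32.9 and 27.5 in the dorsal ones (log2 change 1.10, SE 0.252, limma adjusted p = 0.0112). Its ventral libraries were all above the dorsal ones. In males Nrp2 was at 79.5 to 120 ventrally and 89.4 to 163 dorsally (-0.26, limma adjusted p = 0.594, and -0.17 without ventral pool 7), and the interaction (-1.37, adjusted p = 0.0564) was not called, but was with the pool number as a replicate block (-1.27, 0.0185). Between the series Nrp2 was 1.32 higher in males (SE 0.246, limma adjusted p = 0.003), every male library but 1 being above every female one. That fit too took the libraries of a pool as separate. Nrp1 was nearly level in females, at 150 ± 20.7 (SD, n = 3) ventrally and 156 ± 19.03 (SD, n = 3) dorsally, with a log2 change of -0.05 (limma adjusted p = 0.832). L1cam and Nrcam, adhesion molecules that join Sema3a complexes, did not pass the filter in females.

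Of the 13 semaphorins of other classes, 11 were listed and 8 tested in females, and Sema5a alone was called (0.68, SE 0.213, limma adjusted p = 0.0382). It was called in 9 of 18 alternatives. Of 17 intracellular partners tested, 4 were called higher ventrally and 1 lower. Against the 27.8% of all genes called in females, the 5 of 17 partners were near the background and the 1 of 8 semaphorins below it. Arhgef12, which binds B-type plexins, rose by 1.58 (limma adjusted p = 0.0004), Dpysl5 by 2.28 (0.0035), Rras, a target of the plexin GTPase-activating domain, by 1.10 (0.0047) and Fyn, a kinase of Sema3a signaling, by 1.08 (0.0049). Dpysl3, a collapsin response mediator named here for its direction after its values were seen, fell by 0.63 (0.0142). In males 0 of these semaphorins and partners were called by limma.

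**Figure D4:**
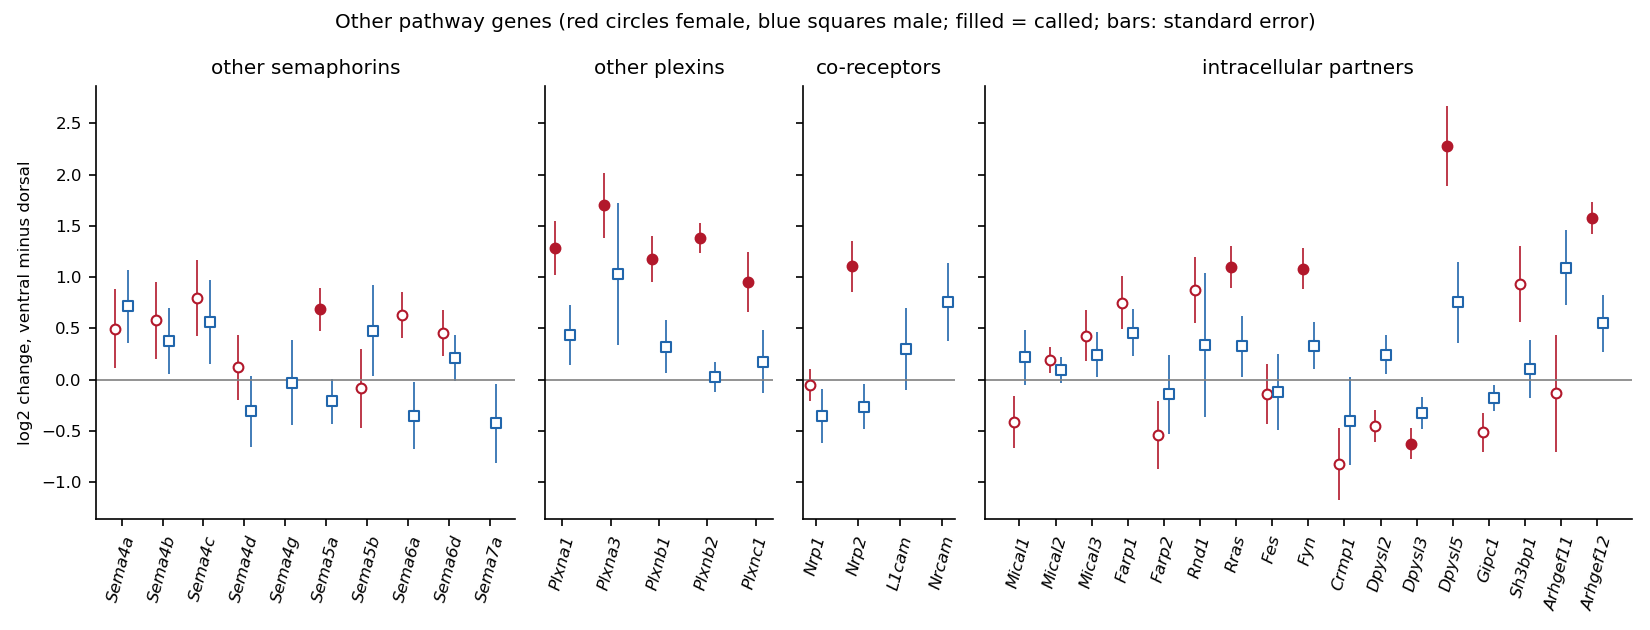
Log2 change between the sides (y axis, ventral minus dorsal) of the other pathway genes, grouped by list, in females (red circles) and males (blue squares), with standard errors as bars; filled symbols are called by limma. The 5 further plexins lie above 0 in females, and no male symbol is filled.

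By the likeness of the log2 profile over the 13 libraries (root mean square difference of centered values), the genes nearest to Sema3d were Nkain4 (0.26), Mgst1 (0.29) and Sulf1 (0.29), against a spread of 0.98 of Sema3d about its own mean. Nearest to Sema3f were Emp3 (0.20), Itga3 (0.22) and Dcn (0.23), of which Dcn encodes the matrix proteoglycan decorin. Sema3c was nearest to Man2b2 (0.43), Enpep (0.46) and Wfdc1 (0.48), and Sema3e to Pdpn (0.44), Rpp25 (0.46) and Dpp4 (0.46). Pdpn encodes podoplanin, which is found on epicardium and lymphatic endothelium. Plxna4 was nearest to Syne2 (0.27), Cgnl1 (0.30) and Tnks1bp1 (0.30), and Plxnd1 to Ecscr (0.25), Pcdh17 (0.28) and Myct1 (0.29), of which Ecscr and Myct1 are endothelial genes. The libraries share region, sex and tissue content, so these are descriptions.

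Markers of the tissue moved with the same comparison. The labelled tissue was checked by Wt1 (26.4 to 216 normalized CPM over the 13 libraries of settled region) and Upk3b (90.2 to 2171). Both are epicardial markers and were present in each of these libraries. Against 14.5% of all genes called higher ventrally and 13.3% higher dorsally in females, all 10 epicardial markers were called higher ventrally there. Their summed level was 1777 to 2858 ventrally and 282 to 636 dorsally in females, and 2000 to 6108 ventrally and 1635 to 4236 dorsally in males. The next lists were those of fibroblasts (5 of 8 called higher ventrally in females, summed level 11545 to 22103 against 2904 to 4547), macrophages (5 of 6, 206 to 416 against 66.9 to 122) and lymphatic endothelium (4 of 6, 395 to 1960 against 148 to 290). Smooth muscle and pericyte markers went the other way (3 of 6 called lower, 746 to 1151 against 1287 to 1603). Among those called was Myh11, at 0.02 to 6.81 over the libraries of settled region. Blood endothelial markers overlapped in females (0 of 6, 726 to 1056 against 711 to 1195). In males their sums did not overlap, at 169 to 866 ventrally and 1006 to 1092 dorsally. Of the ventricular cardiomyocyte markers, 2 of 10 were called higher ventrally in females (Ttn and Ryr2), while the median log2 change of the list was -0.26 and its sum was 22072 to 31944 ventrally and 28950 to 43688 dorsally. In males the sum was 16903 to 33114 ventrally and 34484 to 44573 dorsally, and over both series 2 of the 10, Actc1 and Pln, were called lower ventrally by limma. These 4 markers and Nppa were named after their values were seen. Of 5 atrial markers listed 1, Nppa, was called lower ventrally in females, and the list summed to 829 to 1443 ventrally and 534 to 12512 dorsally. The Schwann cell and neuron markers had 3 of 6 listed and 0 of 1 tested called. Sox10 was at 4.37 or below in every library of settled region. In males, by limma, 0 markers of any list were called.

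**Figure D5:**
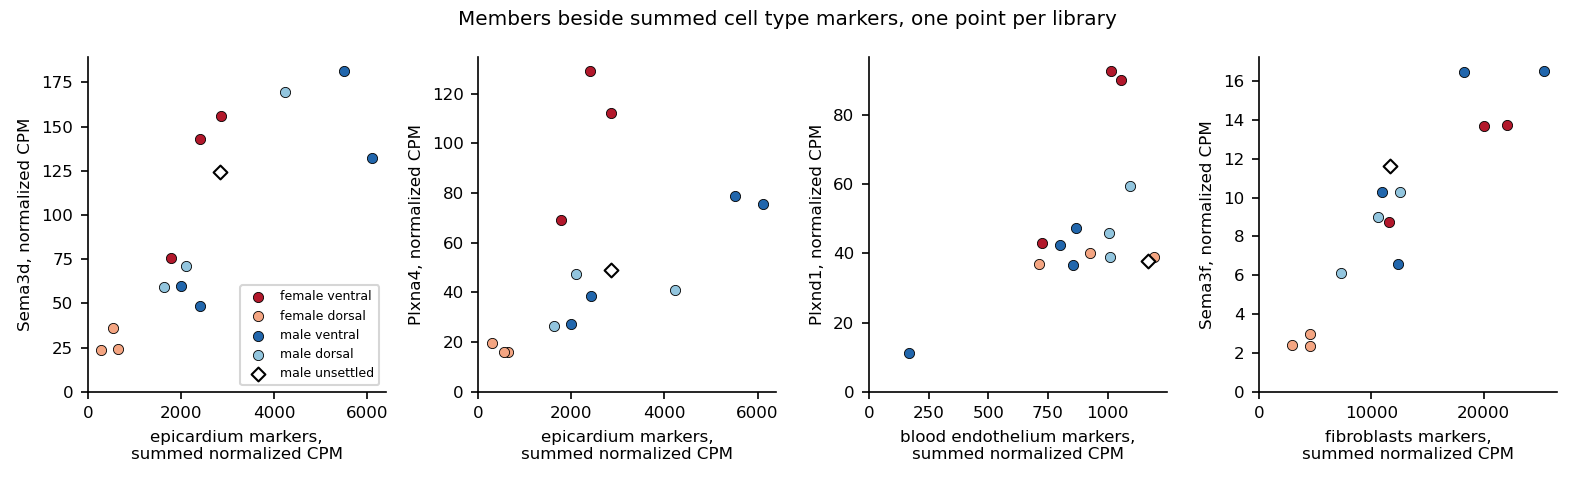
Level of a gene (y axes, normalized CPM, from 0) against the summed level of a marker list (x axes, normalized CPM, from 0), 1 point per library, colored by group, with the library of unsettled region as an open diamond. The female dorsal libraries lie lowest for epicardial markers, Sema3d and Plxna4, and male ventral 7, with 169 for blood endothelial markers, is lowest for Plxnd1 at 11.2.

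In a fit with the mean of the 10 epicardial markers as a covariate, added after the data were seen, 0 of the 10 genes were called in females by limma and 1 had an unadjusted p under 0.05, while 21 genes were called in all. The covariate and the side go together in these libraries, and the standard errors widened. Plxna4 then had a log2 change of 2.12 (SE 0.717, limma adjusted p = 0.432), Sema3f 0.97 (SE 0.906, 0.812) and Sema3d 0.52 (SE 0.672, 0.869). In the fit over both series 0 of the 10 genes and 0 of all genes were called by limma with this covariate, and 0 of the 10 had an unadjusted p under 0.05. Plxna4 was at 0.24 there (SE 0.317, adjusted p = 0.747), Sema3f at 0.17 (SE 0.266, 0.784) and Sema3d at -0.51 (SE 0.257, 0.390). The interaction of Plxna4 was then -1.21 (limma adjusted p = 0.169), and that of Plxnd1 was called (-2.33, 0.0349). The interaction fit with this covariate called 483 of 15772 genes, 140 of them below 0. The part of the other lists in the regional changes was not tested.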

How the data were processed

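RNA was measured by poly(A) RNA-seq (60-base single reads) in 14 libraries. By the study's methods and the submitters' processing notes, the authors trimmed adapters with Cutadapt, dropped reads under 30 bases, quantified genes with RSEM on the GRCm38 transcriptome, normalized with limma and kept genes at 1 CPM in at least 3 samples. The deposited values are a signal in normalized CPM. They came out as whole reads plus 0.5 per unit of an effective library size in 100% of cases (tolerance 0.02 reads). Counting by strand is not given in the sources used here. Depth was 13.9 to 25.2 M reads per library, and replicates differed by far more than sampling noise.

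Values plus 1 were log2-transformed and fitted in R 4.3.3 with limma 3.58.1 (lmFit, trended eBayes), keeping genes at 1 or more in 3 or more of the libraries fitted. P-values were Benjamini-Hochberg adjusted over all genes tested, and calls were made under 0.05. Sides were compared in females, in males and in both with sex as a covariate, the change between sexes in 4 groups, and sexes with region as a covariate. Alternatives included edgeR 4.0.16 and limma-voom on recovered reads. Scripts were tested on simulated data. Lengths and positions came from GENCODE M21 and promoters from RefSeq.

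Pool numbers were checked as pairs: the deviations of same-numbered libraries correlated by 0.187, 0.169 and 0.270 in females and 0.427, 0.175 and 0.351 in males over 15772 genes. As every pair was over 0.1, the numbers were taken to pair the libraries, and the blocked value is given where it changes a call. Genes named are the 10 members, the co-receptors and other pathway genes called in females (up to 4 a list, smallest adjusted p first), and the 3 genes nearest in profile to each member called in females. Members and lists were chosen with earlier results of these data known. The library of unsettled region entered alternatives only.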

Additional observations from a re-analysis of the deposited data

Results flagged for a closer look

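Among the 10 members, 1 result differed between the series of pools by a test of the difference itself, in the fit without the pool number as a block. The ventral minus dorsal change of Plxna4 was -2.05 on the log2 scale in males relative to females (SE 0.490, limma adjusted p = 0.0361), from 2.47 in females and 0.42 in males (0.19 to 0.71 without single male libraries). It was called in 15 of 27 alternatives, with adjusted p from 0.0051 to 0.169. With the pool number as a replicate block, Sema3d (-2.23, limma adjusted p = 0.000280) and Sema3c (-1.95, 0.0339) were called as well. Among the other pathway genes the interaction of Plxnb2 was also called (-1.36, limma adjusted p = 0.0018), in 27 of 27 alternatives. No group of libraries held a value of the 10 members that stood out by Dixon's test, which applied to the 4 male ventral libraries only.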

How the results depend on the processing

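Reads were few for Sema3g, with at most 50 in any library of settled region, and for Sema3e, with 2 to 26 in the female dorsal ones. The female calls of Plxna4, Sema3d and Sema3f were kept under every alternative in which they were tested (Sema3f was not tested over genes with a mean of 10 or more) except the epicardial covariate, which like limma-voom in the comparisons other than the female one was chosen after seeing the data. The replicate block alone changed the member calls named in the report (Sema3b in females, Sema3d and Sema3c in the interaction) and no other. The interaction below is the male regional change minus the female one. Counts that moved by over 1.5 times and changes of the other sign follow, as log2 changes where a gene is named, and the cause was not tested.

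With the replicate block, males called 76 genes and gave Sema3a -0.019, Sema3c -0.20 and Sema3d -0.14 and the interaction called 804 genes and 3 members. After removal of the GC and length trend, females gave Plxna2 -0.12, males called 1 gene and gave Plxnb2 -0.10, both series gave Plxnd1 -0.16, the interaction called 0 members and gave Sema3a 0.069, and the sex comparison called 0 members and gave Plxna4 0.065. With the replicate block and without that trend, females gave Plxna2 -0.12, males called 27 genes and gave Plxnb2 -0.073, Sema3a -0.062, Sema3b -0.050, Sema3c -0.16 and Sema3d -0.14, both series called 1806 genes and 1 member, and the interaction called 769 genes and 3 members. With quantile normalization, females gave Nrp1 0.039, both series gave Sema3g -0.087, and the interaction gave Sema3a 0.024. Without the trend in eBayes, males called 1 gene, the interaction called 0 members, and the sex comparison called 0 members. Over genes with a mean of 10 or more, both series called 1 member. By edgeR on recovered reads, the interaction gave Sema3a 0.21 and the sex comparison gave Plxna4 0.0096. By limma-voom on recovered reads, both series called 1 member, the interaction called 0 members and gave Sema3g 0.71, and the sex comparison called 0 members. With the unsettled library as dorsal, males gave Sema3d -0.084 and the sex comparison gave Plxna4 0.089. With the unsettled library as ventral, males gave Sema3c -0.00094. With all 14 libraries and sex alone, the sex comparison called 0 members and gave Plxna4 0.089. With the epicardial covariate, females called 21 genes and 0 members and gave Nrp1 0.62, Plxna2 -0.29, Sema3b -1.08, Sema3e -1.14 and Sema3g -0.72, males gave Plxna4 -0.053, Plxnb2 -0.062, Sema3a -0.42, Sema3b -0.22, Sema3c -0.67 and Sema3d -0.67, both series called 0 genes and 0 members and gave Nrp1 0.12, Nrp2 -0.14, Sema3a -0.27, Sema3b -0.34, Sema3c -0.40, Sema3d -0.51 and Sema5a -0.059, the interaction gave Sema3a 0.63, Sema3b 0.45 and Sema3e 1.04, and the sex comparison called 0 members and gave Plxnb2 -0.23, Sema3c -0.20, Sema3d -0.60 and Sema3f -0.093. Without 1 library at a time, the genes called ran from 2158 to 3845 in females, from 0 to 12 in males, from 1429 to 3646 in both series and from 260 to 447 in the interaction, and the members called from 3 to 6 in females, from 1 to 4 in both series, from 0 to 1 in the interaction and from 0 to 1 in the sex comparison. The changes that crossed 0 then were in females Nrp1 from -0.15 to 0.053 and Sema3a from -0.35 to 0.95, in males Plxnb2 from -0.058 to 0.12, Sema3a from -0.20 to 0.63, Sema3c from -0.27 to 0.48 and Sema3d from -0.29 to 0.49, in both series Plxnd1 from -0.088 to 0.35, Sema3a from -0.049 to 0.48 and Sema3g from -0.0047 to 0.36, in the interaction Sema3a from -0.78 to 0.51, Sema3e from -1.03 to 0.056 and Sema3g from -0.68 to 0.084 and in the sex comparison Plxna4 from -0.21 to 0.19.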
